A study of Homo sapiens with 54 samples.

Results

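The clustered protocadherin genes are the genes whose symbols begin with PCDHA, PCDHB or PCDHG, and 57 of the 27043 genes in the expression tables carried such a symbol. They lie in 3 neighboring clusters on chromosome 5, between bases 140165721 and 140892548 of GRCh37 (hg19), all on the plus strand. The alpha cluster holds 15 of them, of which 13 are variable genes and 2 are C-type genes. The beta cluster holds 19, including 3 pseudogenes, and the gamma cluster holds 23, of which 19 are variable genes, 3 are C-type genes and 1 is a pseudogene. All 57 symbols were found in the gene annotation, 53 of them as protein-coding genes.

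All samples came from RH4, an established line of human fusion-positive rhabdomyosarcoma (FP-RMS), a muscle-lineage cancer of childhood driven by the fusion transcription factor PAX3-FOXO1, and were labelled wild type in genotype. The compounds P3FI-90 and P3FI-63, written PFI-90 and PFI-63 in the labels, were reported to inhibit several histone lysine demethylases. Inhibition was strongest for KDM3B, an enzyme that removes methyl groups from lysine 9 of histone H3. Others named in the study, such as KDM5A, act on lysine 4. Poly(A) RNA was sequenced after 24 h of P3FI-90 (3 libraries), 24 h of P3FI-63 at 10 µM (2 libraries) and 24 h of DMSO vehicle (3 libraries), and after 6 h of P3FI-90 or DMSO (1 library each). The labels give 1 µM for P3FI-90 replicates 3 and 4 and no dose for replicate 1. A screen of 7 compounds and 1 DMSO control had 1 library each, for which the labels give 24 h and the study's text gives a shorter time. RH4 tumors grown under the skin of immunodeficient mice were collected after 5 days of P3FI-90 (2 tumors) or DMSO (2 tumors). An RH4 culture with a negative control guide for CRISPR interference at 7 days had no counterpart in a comparison, and neither had one with a scrambled control at 48 h, which is the only total RNA library. H3K4me3 and H3K9me2 were mapped by ChIP-seq after 24 h of P3FI-90 or DMSO in 3 libraries each, H3K27me3, HP1 and RNA polymerase II in 1 each, open chromatin by ATAC-seq after 4 h of P3FI-63 at 10 µM or DMSO in 1 each, and single cells after 16 h of P3FI-90 or DMSO in 1 each. The study's methods speak of biological triplicates without naming the libraries, and the titles date DMSO replicates 3 and 4 at 24 h differently, but separate cultures are not stated for each library, so p-values measure the spread between these libraries, part of which may be technical. Replicates 3, 4 and 5 carry these numbers in their titles, whereas replicate 1 of P3FI-90 and of the ChIP-seq groups was numbered in order of deposit.

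Clustered protocadherins are cadherin-like adhesion molecules of the cell surface that are best known in neurons, where each cell uses its own small set and cells with matching sets recognize one another. Each variable exon has its own promoter, which is chosen with the help of CTCF, cohesin and a distant enhancer, and unused promoters are kept silent by DNA methylation and by H3K9 methylation. In the alpha and gamma clusters every variable exon is spliced to the same constant exons, whereas each beta gene is a single exon. C-type genes lie at the ends of the alpha and gamma clusters and are used more evenly between cells than variable genes.

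The promoters of the 3 most abundant members are shown because most of the protocadherin RNA in the poly(A) libraries of RH4 was assigned to these genes. Each run is 300 bases of the plus strand of GRCh37, with 250 bases before the annotated start and 50 bases from it on. Capitals mark CGCTGT or GGCGCT within the 100 bases before the start, 2 strings around the CGCT core of the box that recurs in these promoters. The runs span chr5:140855264-140855563 for PCDHGC3, chr5:140514538-140514837 for PCDHB5 and chr5:140796962-140797261 for PCDHGB7.
PCDHGC3: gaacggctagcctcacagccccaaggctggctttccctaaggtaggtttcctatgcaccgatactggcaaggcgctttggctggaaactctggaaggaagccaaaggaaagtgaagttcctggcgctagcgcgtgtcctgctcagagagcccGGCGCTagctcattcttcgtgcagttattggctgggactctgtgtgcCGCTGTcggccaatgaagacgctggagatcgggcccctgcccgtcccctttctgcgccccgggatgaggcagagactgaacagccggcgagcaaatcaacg
PCDHB5: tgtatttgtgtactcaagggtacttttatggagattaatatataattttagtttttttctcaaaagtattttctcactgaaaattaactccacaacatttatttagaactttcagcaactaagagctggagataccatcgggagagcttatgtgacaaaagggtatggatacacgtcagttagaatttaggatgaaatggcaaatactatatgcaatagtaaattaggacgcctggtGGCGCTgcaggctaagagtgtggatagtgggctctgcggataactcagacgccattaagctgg
PCDHGB7: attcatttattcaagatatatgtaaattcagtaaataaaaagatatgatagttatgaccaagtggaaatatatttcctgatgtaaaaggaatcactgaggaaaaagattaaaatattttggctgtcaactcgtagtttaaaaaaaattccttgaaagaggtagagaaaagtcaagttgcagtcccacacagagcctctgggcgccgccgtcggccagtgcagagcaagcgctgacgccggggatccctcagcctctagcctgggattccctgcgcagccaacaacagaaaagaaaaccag

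The box is compared in stretches of 60 bases, aligned so that its capitals stand at the same place. The first 4 genes were at 1 TPM (an RNA abundance scaled to transcript length and to the total of the library) or more in the mean of the 8 libraries at 24 h. The other 5 were below it. The stretches lie on the plus strand of GRCh37, at chr5:140561875-140561934 for PCDHB16, chr5:140474119-140474178 for PCDHB2, chr5:140729584-140729643 for PCDHGB1, chr5:140792490-140792549 for PCDHGA10, chr5:140235418-140235477 for PCDHA10, chr5:140345942-140346001 for PCDHAC2, chr5:140624872-140624931 for PCDHB15, chr5:140762208-140762267 for PCDHGA7 and chr5:140864511-140864570 for PCDHGC4.
PCDHB16: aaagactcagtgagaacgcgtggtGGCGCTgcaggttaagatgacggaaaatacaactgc
PCDHB2: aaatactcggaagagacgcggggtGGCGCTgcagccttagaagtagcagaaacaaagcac
PCDHGB1: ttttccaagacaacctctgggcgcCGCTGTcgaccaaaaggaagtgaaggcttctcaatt
PCDHGA10: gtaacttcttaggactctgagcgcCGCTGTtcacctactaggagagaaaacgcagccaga
PCDHA10: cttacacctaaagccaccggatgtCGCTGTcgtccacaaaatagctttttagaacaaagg
PCDHAC2: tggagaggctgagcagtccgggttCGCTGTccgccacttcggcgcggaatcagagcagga
PCDHB15: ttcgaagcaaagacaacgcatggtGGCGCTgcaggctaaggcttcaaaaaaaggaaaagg
PCDHGA7: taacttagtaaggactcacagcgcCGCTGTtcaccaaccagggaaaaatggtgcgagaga
PCDHGC4: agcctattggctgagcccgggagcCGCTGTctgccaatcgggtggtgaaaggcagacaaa

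Box and cluster went together. GGCGCT stood on the coding strand of the 100 bases before the start, where the boxes were sought, in 14 of 19 beta genes, 3 of 23 gamma genes and none of the alpha genes. CGCTGT stood there in 16 gamma genes, 7 of 15 alpha genes and 1 beta gene. One or the other was found in 37 of 57 members (64.9%), against 7.35% of the 20136 protein-coding genes. On either strand of the whole 300 bases the strings were found in 43 members and in 32.3% of all protein-coding genes. Both strings hold CGCT so that 1 stretch can hold both, and they were chosen after these promoters had been read. The boxes began 98 to 13 bases before the start, with a median of 48 bases before it, and 27 of the 37 began 70 to 30 bases before it.

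Use of the gene and the box were not the same thing. The box was present in 17 of the 19 members with a mean of at least 1 TPM and in 20 of the 38 members below 1 TPM. The exceptions above 1 TPM were PCDHGB7, the second most abundant member, and PCDHB8. PCDHGB7 had a stretch in which 20 of 22 bases were those of the box region of PCDHGB1, which is shown beside it. The substitutions were T14C and A19G, counted from 1 at the 5′ end of the PCDHGB1 stretch, and the first of them falls in the box.
PCDHGB1: ctctgggcgccgctgtcgacca
PCDHGB7: ctctgggcgccgccgtcggcca

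The promoters were poor in CpG. The 300 bases held a median of 7 CpG in the 57 members, against 18 in all protein-coding genes, and their median GC content was 39.7% against 60.3%. The highest counts were 27 for PCDHAC1, a C-type gene of the alpha cluster, 19 for PCDHGC3, 17 for PCDHGC4 and 16 for PCDHGB6, of which PCDHGC3 alone averaged 1 TPM or more.

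**Figure D1:**
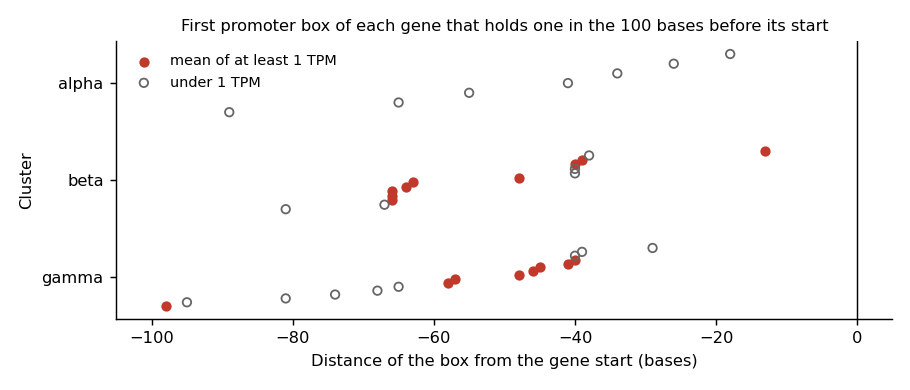
Each point is 1 gene with CGCTGT or GGCGCT in the 100 bases before its start, placed by the distance of the first box in that window from the start (x axis, bases) within its cluster (rows; height within a row only separates points). Filled points are genes whose mean at 24 h was 1 TPM or more, and open points are the rest. All alpha boxes are open, and 27 of the 37 boxes begin 70 to 30 bases before the start.

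RH4 cells used the gamma and beta clusters and left the alpha cluster nearly silent. In the 8 libraries at 24 h, 10 beta genes, 9 gamma genes and none of the alpha genes had a mean of at least 1 TPM. Over all 23 poly(A) libraries, 8 members reached 1 TPM in every one (4 beta, 4 gamma), and 32 stayed under 1 TPM in every one (14 alpha, 7 beta, 11 gamma). The alpha genes summed to 0.34 to 2.12 TPM in the 19 cultured poly(A) libraries. PCDHA6 was the highest of them in any culture, at up to 1.25 TPM in the screen. It was at 0.22 TPM or less in the 8 libraries at 24 h outside the screen, and listed at 0 in all 4 tumors. Of the C-type genes of that cluster, PCDHAC1 was at 0.12 TPM or less and PCDHAC2 at 0.04 TPM or less in the cultured poly(A) libraries. The muscle and FP-RMS markers summed to 2142 to 2531 TPM in P3FI-90 libraries and 2327 to 2569 TPM in DMSO libraries at 24 h. The 13 neuron markers summed to 34.7 to 40.6 TPM with P3FI-90 and 33.7 to 40.1 TPM with DMSO, and 4 of them passed the filter of 1 TPM. SNAP25 and RBFOX3, at 0.37 TPM or less in all 8 libraries at 24 h, were among the low ones of these 13. They do not stand for the list, which as a whole was not silent.

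PCDHGC3 made up most of the protocadherin TPM in the cultured poly(A) libraries. This C-type gamma gene occupies chr5:140855569-140892544 in the authors' table, inside the intervals of the variable gamma genes that start before it. It gave 54.4 to 68.9% of the summed TPM of the 57 members over the 19 cultured poly(A) libraries, with a median of 59.0%, and 44.1 to 52.7% over the 4 tumors. At 24 h it was at 332, 250 and 301 TPM with P3FI-90, at 181 and 109 TPM with P3FI-63, and at 298, 261 and 287 TPM with DMSO. The P3FI-90 and DMSO libraries overlapped, and both P3FI-63 libraries lay below them. The other C-type genes of the cluster stayed low, with PCDHGC4 at a mean of 0.19 TPM and PCDHGC5 at a mean of 0.29 TPM over the 8 libraries.

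PCDHGB7 and PCDHB5 came next in every poly(A) library. PCDHGB7, a variable gamma gene, was at 89.4, 63.6 and 82.9 TPM with P3FI-90, at 36.5 and 26.8 TPM with P3FI-63, and at 83.0, 68.3 and 79.6 TPM with DMSO. PCDHB5, a beta gene at chr5:140514788-140517709, was at 51.5, 32.04 and 41.5 TPM with P3FI-90, at 19.6 and 5.85 TPM with P3FI-63, and at 54.3, 40.3 and 46.9 TPM with DMSO. PCDHGC3, PCDHGB7 and PCDHB5 together held 74.9 to 89.6% of the protocadherin TPM in these libraries. Within their clusters, PCDHGC3 gave 63.4 to 77.1% of the gamma TPM and PCDHB5 gave 36.8 to 53.6% of the beta TPM.

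Lower members followed in steps. PCDHB16 was at 16.9, 10.6 and 12.3 TPM with P3FI-90, at 9.51 and 2.5 TPM with P3FI-63, and at 15.9, 12.3 and 14.1 TPM with DMSO. PCDHGB1 was at 18.01, 9.50 and 10.0 TPM with P3FI-90, at 7.23 and 2.01 TPM with P3FI-63, and at 14.7, 10.7 and 9.71 TPM with DMSO. PCDHB8 was at 10.0, 8.24 and 9.17 TPM with P3FI-90, at 4.00 and 0.92 TPM with P3FI-63, and at 12.1, 12.6 and 8.84 TPM with DMSO. These 3 genes overlapped in DMSO and were not separated in level. PCDHB2, PCDHB3, PCDHB7, PCDHB9, PCDHB10 and PCDHGA10 had means of 2.35 to 4.73 TPM over the 8 libraries. PCDHB11, PCDHB14, PCDHGA2, PCDHGA3, PCDHGA4, PCDHGA9 and PCDHGB2 had means of 1.03 to 1.56 TPM. TPM keep no depth, so the counting error of these values is unknown. Reads in the exons shared by the gamma genes, and reads that fit several similar beta genes, were divided between genes by the estimator, so the level of 1 member is less certain than that of its cluster.

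**Figure D2:**
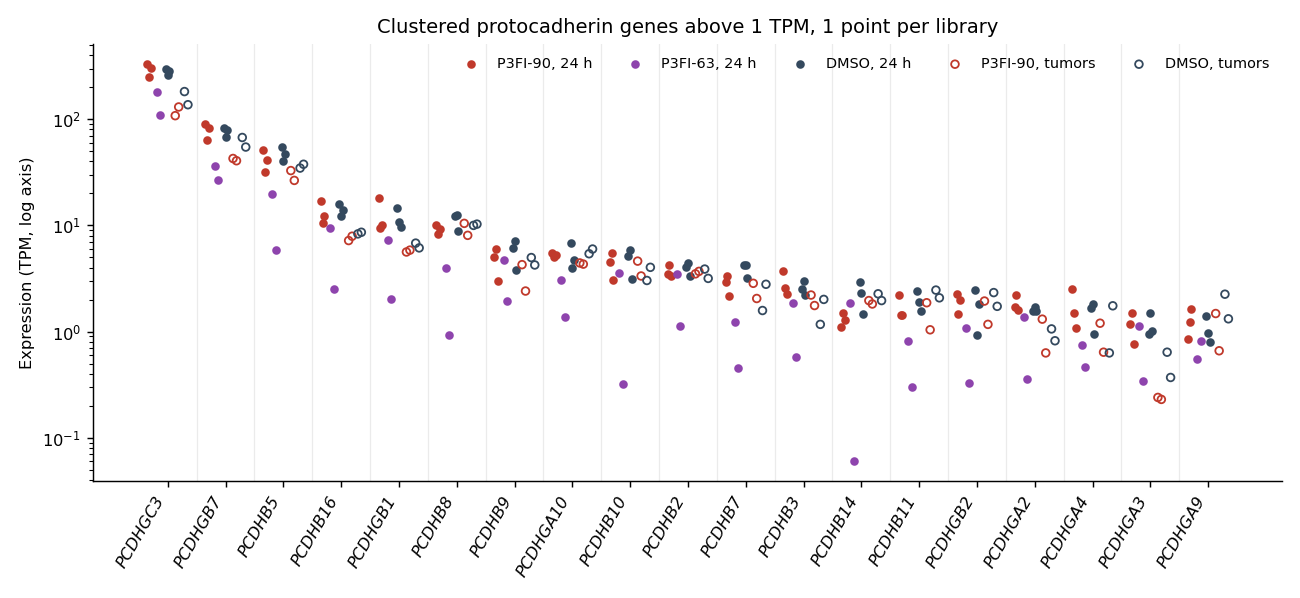
Expression in TPM (y axis, log scale) of the 19 members with a mean of at least 1 TPM, with 1 point per library: filled for cultures at 24 h (P3FI-90, P3FI-63, DMSO) and open for tumors (P3FI-90, DMSO). PCDHGC3 is the highest in all groups, and the P3FI-63 points are the lowest cultured ones for most genes.

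Whether P3FI-90 alters the use of these genes was tested over 24 h with limma on log2(TPM + 1), and no member passed. Of the 19 members tested, 0 were called at an adjusted p under 0.05 and 0 had an unadjusted p under 0.05. Among all 12332 genes, 1 was called (0.00811%) and 244 had an unadjusted p under 0.05. The log2 differences ran between -0.47 (PCDHB14) and 0.12 (PCDHGB2), with a median of -0.01 against -0.08 over all genes. PCDHGC3 differed by 0.05 on the log2 scale (95% interval -0.45 to 0.55), PCDHGB7 by 0.02 (-0.51 to 0.55) and PCDHB5 by -0.19 (-1.09 to 0.71). None of the 19 members tested lay lower in every P3FI-90 library than in every DMSO library, against 7.73% of all genes tested. Of the 10 beta genes 9 had a negative difference, with a median of -0.17, and of the 9 gamma genes 1 had, with a median of 0.05, which is given as a description since no member passed the test.

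P3FI-63 at 10 µM gave lower values for all 19 members that passed the filter of 1 TPM, and 1 of them, PCDHGB7, passed the test. PCDHGB7 fell by 1.27 on the log2 scale (SE 0.26, limma adjusted p = 0.043). Over all 12332 genes, 149 (1.21%) were called lower and 143 (1.16%) higher, which is 2.37% in either direction. An unadjusted p under 0.05 was found for 9 of the 19 members and 2432 of all genes. The median difference of the 19 members was -0.94, against -0.35 over all genes. The filter took the mean of all 8 libraries, so a member that was low with P3FI-63 alone could pass it. Without this filter, 42 of 54 members had a negative difference, with a median of -0.19 against -0.11 over all genes. The share of all genes with a negative difference was not computed. In 12 of the 19 members, both P3FI-63 libraries lay below all 3 DMSO libraries, against 24.3% of all genes. These were PCDHGC3, PCDHGB7, PCDHGB1, PCDHGA2, PCDHGA4 and PCDHGA10 of the gamma cluster, and PCDHB3, PCDHB5, PCDHB7, PCDHB8, PCDHB11 and PCDHB16 of the beta cluster.

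The beta genes PCDHB5 and PCDHB8 had the largest differences and narrowly missed the threshold. PCDHB5 differed by -2.01 on the log2 scale (SE 0.45, limma adjusted p = 0.052), and PCDHB8 by -1.96 (SE 0.44, limma adjusted p = 0.053). PCDHB7, at 1.24 and 0.45 TPM with P3FI-63 and at 4.23, 4.21 and 3.18 TPM with DMSO, differed by -1.43 (SE 0.35, limma adjusted p = 0.071). PCDHGC3 differed less, by -1.003 (SE 0.25, limma adjusted p = 0.073), and its share of the protocadherin RNA was higher in both P3FI-63 libraries (62.5 and 68.9%) than in the DMSO libraries (56.4, 57.6 and 59.8%). The smallest differences were those of PCDHGA9 (-0.29) and PCDHGA3 (-0.34), which are also among the rarest members tested.

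The call for P3FI-63 rested on few libraries, and both compounds were compared with the same DMSO libraries at different doses. With median-ratio scaling, which moved the median of all genes to 0.00 and left that of the members at -0.75, PCDHB5, PCDHB7 and PCDHB8 were called lower (1.7% of all genes) and PCDHGB7 was not. That scaling called 328 genes higher and 210 lower. Without P3FI-63 replicate 3, 14 members were called lower beside 35.5% of all genes, and without P3FI-63 replicate 4 none were, beside 0.969%. Leaving out any 1 of the DMSO or P3FI-90 libraries also left no member called. P3FI-63 replicate 4 had the lowest summed protocadherin TPM of the cultured poly(A) libraries (158 TPM) and the lowest median-ratio factor (0.601). Muscle and FP-RMS markers summed to 1559 to 1846 TPM in the P3FI-63 libraries, below both other groups, and 2 of their 10 tested genes, MYOG and MYCN, were called lower. Neuron markers summed to 56.9 to 83.1 TPM with P3FI-63 and 33.7 to 40.1 TPM with DMSO, glia markers to 7.06 to 9.12 TPM with P3FI-63 and 5.15 to 6.98 TPM with DMSO, and fibroblast, endothelial and blood markers to 530 to 557 TPM with P3FI-63 and 625 to 1005 TPM with DMSO. Fewer cells of a type and less RNA per cell cannot be told apart in bulk RNA, and the part of these shifts in the protocadherin values was not tested.

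**Figure D3:**
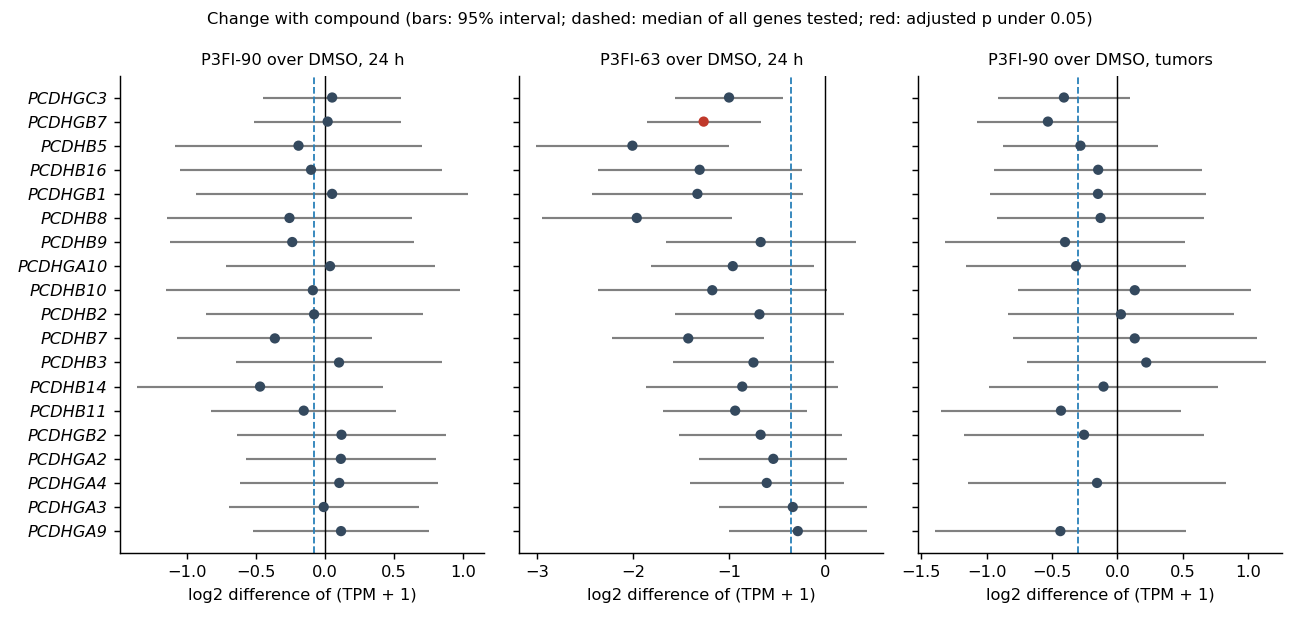
Difference in log2(TPM + 1) (x axis) of each member (rows) for P3FI-90 over DMSO at 24 h, P3FI-63 over DMSO at 24 h and P3FI-90 over DMSO in tumors, with 95% intervals from limma; the dashed line is the median of all genes tested and a red point marks an adjusted p under 0.05. All 19 points lie left of 0 for P3FI-63, where PCDHGB7 is the red one, and the doses of the compounds differ.

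Tumors treated with P3FI-90 for 5 days gave no called member. Of 17 members tested with limma, 0 were called and 0 had an unadjusted p under 0.05, beside 2 of 12357 genes called (0.0162%) and 849 with an unadjusted p under 0.05. PCDHGC3 was at 108 and 130 TPM in P3FI-90 tumors and at 182 and 137 TPM in DMSO tumors, and PCDHGB7 at 42.7 and 40.6 TPM in P3FI-90 tumors and 67.2 and 54.7 TPM in DMSO tumors. Both genes were lower in each P3FI-90 tumor than in either DMSO tumor, with log2 differences of -0.41 (95% interval -0.91 to 0.09) and -0.53 (-1.07 to 0.01). PCDHB5 was at 32.8 and 26.5 TPM in P3FI-90 tumors and at 34.7 and 37.6 TPM in DMSO tumors. PCDHB8 was at 10.4 and 8.06 TPM in P3FI-90 tumors and at 10.0 and 10.3 TPM in DMSO tumors, so the groups overlapped. PCDHB16 was at 7.20 and 7.91 TPM in P3FI-90 tumors and at 8.32 and 8.62 TPM in DMSO tumors, and PCDHGB1 at 5.62 and 5.85 TPM in P3FI-90 tumors and at 6.81 and 6.14 TPM in DMSO tumors. The alpha genes were low here too, with PCDHA2, PCDHA11 and PCDHA3 the highest of them at 0.33 TPM or less in each tumor. In 7 of the 17 members every P3FI-90 tumor was below every DMSO tumor, against 40% of all genes, and the median difference was -0.16 for the members (negative in 6 of 10 beta and 7 of 7 gamma genes) and -0.30 for all genes. With median-ratio scaling the median of the members turned to 0.05.

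At 6 h of P3FI-90, with 1 library each and therefore no test, none of the 20 members compared had moved 2-fold on TPM + 1, against 4.54% of 12212 genes in either direction. PCDHGC3 was at 292 TPM with P3FI-90 and 245 TPM with DMSO, PCDHGB7 at 79.8 TPM with P3FI-90 and 74.2 TPM with DMSO, and PCDHB5 at 49.0 TPM with P3FI-90 and 46.4 TPM with DMSO. In the screen, 6 of the 7 compounds had no member past 2-fold, among them P3FI-63, beside 3.27% of all genes in either direction. For the other 5 of these the share of all genes was 0.434% (IMMLG-5770), 0.991% (KUC100517N) and 0.899% (KUC102648N), and 0.564 and 0.776% for 2 compounds labelled by a number alone. NP-005584 had 1, PCDHB8, at 5.50 TPM against 16.39 TPM in the DMSO library, beside 11.5% of all genes in either direction and 5.1% lower. With NP-005584, 18 of 19 members were lower than in DMSO and their median log2 difference was -0.53, against -0.02 over all genes. With P3FI-63 in the screen, 17 of 19 members were lower with a median of -0.27, against -0.04 over all genes, and PCDHB8 was at 9.24 TPM and PCDHB5 at 28.1 TPM, against 16.39 and 46.9 TPM in DMSO. All screen values share 1 DMSO library and have no replicate check.

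The total RNA library with the scrambled control at 48 h showed a broader choice of genes. PCDHGC3 was at 38.7 TPM there and gave 18.4% of the protocadherin TPM. In this library 32 members reached 1 TPM, of which 12 were beta genes and 19 gamma genes. It was above every poly(A) library for 24 members, against 5.75% of all genes, and 9 members were at 1 TPM or more in it and under 1 TPM in every poly(A) library, against 0.88% of all genes. This library differs from the others in RNA selection and in treatment at once, and these cannot be told apart.

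H3K4me3, a mark of active gene starts, was found mainly at the members in use. A peak lay within 2 kb of the start in at least 1 of the 6 libraries for 16 members, of which 13 had a mean of at least 1 TPM, and in 4 or more libraries for 11 members, of which 10 did. The exception was PCDHA11, at a mean of 0.16 TPM, whose peaks were centered 973 to 1129 bases after its start. Of the 41 members with no peak, 6 had a mean of at least 1 TPM, and PCDHB10 was the highest of these at 3.87 TPM. Only PCDHGC3, PCDHB5 and PCDHB16 had a peak in all 6 libraries. Of all protein-coding starts, 50.4 to 60.7% had a peak, depending on the library.

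P3FI-90 left the H3K4me3 cover of these starts within the spread of the replicates. At PCDHGC3, peaks covered 60.5, 49.2 and 61.4% of the 4 kb window with P3FI-90 and 61.8, 49.9 and 61.2% with DMSO. At PCDHB5 they covered 29.5, 21.8 and 28.9% with P3FI-90 and 29.2, 21.1 and 30.0% with DMSO, and at PCDHB16 27.7, 21.4 and 30.2% with P3FI-90 and 28.9, 17.2 and 29.8% with DMSO. Replicate 3 was the lowest in both groups, and its lists held 16662 peaks with P3FI-90 and 16410 with DMSO, against 24160 to 29812 in the others. At PCDHGB7, whose peaks covered 27.9 and 27.4% with P3FI-90 and 25.5 and 25.4% with DMSO in replicates 1 and 4, replicate 3 had no peak in either group. Of 16 members tested with limma 0 were called and 0 had an unadjusted p under 0.05, beside 0 of 12332 genes called (0%) and 3 with an unadjusted p under 0.05. The short lists of replicate 3 widen the spread in both groups, so this test cannot show that the mark was unchanged. Peak cover also lacks the scaling to added Drosophila chromatin with which the study reported H3K4me3 peaks that rose with P3FI-90. Cover records the width of peaks and not their height, which was not tested. In replicates 1, 3 and 4 the fold enrichment at PCDHGC3 was 166, 20.6 and 81.7 with P3FI-90 and 173, 21.5 and 45.6 with DMSO. At PCDHB5 it was 140, 31.6 and 146 with P3FI-90 and 138, 28.8 and 79.1 with DMSO.

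**Figure D4:**
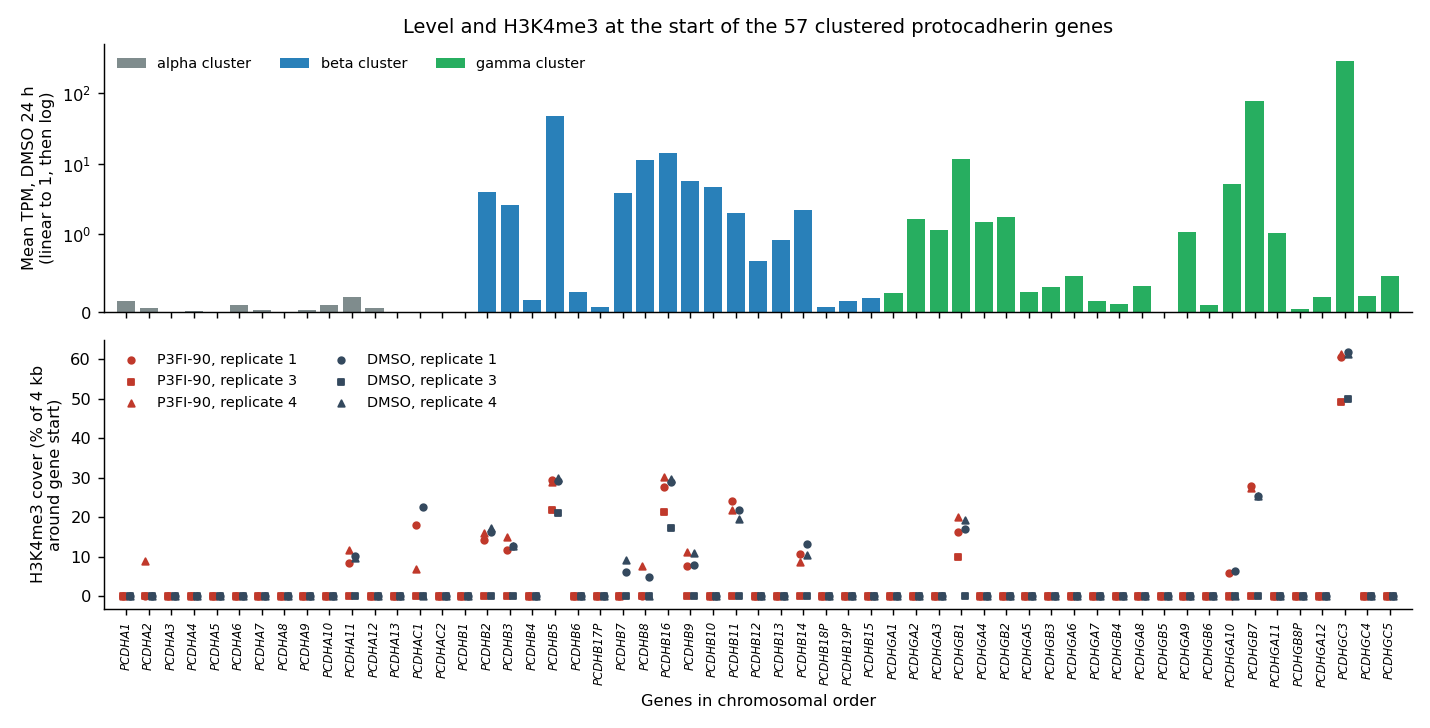
Mean TPM of the 3 DMSO libraries at 24 h (upper panel, y axis linear to 1 and then log) and percent of the 4 kb around the start covered by H3K4me3 peaks in each P3FI-90 and DMSO library (lower panel) for the 57 members in chromosomal order. PCDHGC3 has the highest level and the widest cover, at 49.2 to 61.8%, and most alpha genes have neither.

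H3K9me2, the mark that KDM3B removes, was seen over many members in replicate 1 and over few in most lists of replicates 3 and 5. The replicate 1 lists reach down to a −log10 p of 1.00 and hold 1289399 peaks with P3FI-90 and 1266233 with DMSO, whereas those of replicates 3 and 5 begin at 3.01 to 3.03 and hold 9294 to 26073. As deposited, peaks covered 14.6, 0.249 and 0.326% of the locus with P3FI-90 and 14.5, 0.273 and 0.229% with DMSO. Of 50 members tested for cover of the gene interval with limma, 0 were called and 0 had an unadjusted p under 0.05, and over all 17226 genes 0 were called (0%) and 0 had an unadjusted p under 0.05. With peaks of a −log10 p of at least 3 in every list, chosen after the data were seen, 0 of 21 members and 0 of 7354 genes were called, with 0 at an unadjusted p under 0.05. Replicate 1 still held 258066 such peaks with P3FI-90 and 236211 with DMSO. Each group mixes unlike lists, so neither fit can show a change or its absence. Peak cover also lacks the scaling to added Drosophila chromatin with which the study reported H3K9me2 peaks that rose with P3FI-90. At that threshold replicate 1 covered 2.35% of the locus with P3FI-90 and 1.98% with DMSO, and had a peak in the interval of 40 members with P3FI-90 and 42 with DMSO. In replicate 3 the intervals of 15 members, all alpha genes that share a peak, had one with P3FI-90 and those of 2 with DMSO, and in replicate 5 that of 1 member had one in each group. Of all protein-coding genes, 63.1% with P3FI-90 and 62.4% with DMSO had such a peak in replicate 1. The shares were 12.1% with P3FI-90 and 19.8% with DMSO in replicate 3, and 6.96% in each group in replicate 5. The intervals of the alpha genes share 1 end and those of nearly all gamma genes end within a few bases of each other, so their cover values repeat the same peaks.

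PCDHB8 was the only member whose start window held an H3K9me2 peak in all 6 libraries at that threshold. The peaks covered 9.55, 29.6 and 44.1% of its window with P3FI-90 and 8.10, 8.50 and 38.0% with DMSO in replicates 1, 3 and 5. The groups overlapped. Within each number the cover was higher with P3FI-90 at this threshold, but the shared numbers were not taken to pair libraries. Over peaks as deposited, replicate 1 was covered to 45.9% with P3FI-90 and 55.7% with DMSO. The same window held an HP1 peak in both groups, over 29.1% with P3FI-90 and 46.4% with DMSO. PCDHB7 had peaks in its gene interval in replicates 1 and 5, over 12.5 and 21.8% with P3FI-90 and 17.6 and 19.6% with DMSO, and none in replicate 3. PCDHB7 and PCDHB8 were picked out here, as were alpha and low beta genes elsewhere, after their values were seen.

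HP1, a reader of H3K9 methylation detected with an antibody to HP1 alpha, and H3K27me3, the Polycomb mark, had 1 library per group and no test. HP1 peaks covered 0.876% of the locus with P3FI-90 and 0.962% with DMSO. Start windows with an HP1 peak numbered 5 of 57 with P3FI-90 (PCDHA13, PCDHB5, PCDHB8, PCDHB16 and PCDHGC3) and 4 with DMSO (PCDHA12, PCDHB4, PCDHB8 and PCDHGB1), against 7.78% of all protein-coding starts with P3FI-90 and 3.21% with DMSO. The PCDHB16 window was covered to 11.5% and that of PCDHB5 to 17.6% with P3FI-90, and neither held an HP1 peak with DMSO.

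H3K27me3 lay mainly over the alpha cluster. Its peaks covered 25.7% of the alpha cluster with P3FI-90 and 25.3% with DMSO, whereas they covered 8.73% of the beta cluster with P3FI-90 and 7.30% with DMSO, and 7.17% of the gamma cluster with P3FI-90 and 4.13% with DMSO. At a −log10 p of at least 3, PCDHAC1 was covered to 76.9% of its start window with P3FI-90 and 99.4% with DMSO. PCDHB1 was covered to 71.3% with P3FI-90 and 68.0% with DMSO. PCDHA13 was covered to 39.0% with P3FI-90 and 61.3% with DMSO, and PCDHAC2 to 30.9% with P3FI-90 and 54.3% with DMSO. All 4 of these genes were at a mean of 0.03 TPM or less. For PCDHGC3 the order of the groups turned with the threshold, with no such peak with P3FI-90 and 13% cover with DMSO, but 24.3% with P3FI-90 and 13% with DMSO over peaks as deposited. In all, 19 start windows held such a peak with P3FI-90 and 13 with DMSO, beside 39.95% of all protein-coding starts with P3FI-90 and 35.0% with DMSO.

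Peaks of the transcribing polymerase were few. Total RNA polymerase II had no peak in the locus in either group, and its lists were short, with a peak at 0.516% of all protein-coding starts with P3FI-90 and 6.21% with DMSO. The Ser2-phosphorylated form, found along transcribed genes, had 0 peaks in the locus with P3FI-90 and 2 with DMSO, beside 2268 peaks genome-wide with P3FI-90 and 10086 with DMSO. The Ser5-phosphorylated form, found at gene starts, had 5 peaks with P3FI-90 and 8 with DMSO, of which those at the starts of PCDHGC3 and PCDHB16 were present in both groups and those at PCDHB5 and PCDHGB1 in DMSO alone. The PCDHGC3 peak had a fold enrichment of 6.101 with P3FI-90 and 14.1 with DMSO. Genome-wide the Ser5 lists held 7484 peaks with P3FI-90 and 13691 with DMSO, so fewer peaks were called in general. ATAC-seq at 4 h gave 13 peaks in the locus with P3FI-63 and 7 with DMSO, beside 55987 peaks genome-wide with P3FI-63 and 30221 with DMSO. The starts of PCDHGC3, PCDHB8 and PCDHAC1 were open in both, and those of PCDHGB1, PCDHGB7 and PCDHB3 with P3FI-63 alone.

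In single cells PCDHGC3, PCDHB5, PCDHGB7 and PCDHB16 were the 4 members with the most UMIs in both groups, which ranks counts and not levels. After filtering, 10040 cells with P3FI-90 and 12248 with DMSO remained, with a median of 13658 UMIs with P3FI-90 and 9102.5 with DMSO (unique molecular identifiers, counts of single RNA molecules), and 24 barcodes occurred in both. Of 52 members in the list of features, 44 had a UMI with P3FI-90 and 45 with DMSO. PCDHGC3 was at 10.9 UMIs per 1000000 with P3FI-90 (exact Poisson 95% interval 10.4 to 11.5) and 13.9 with DMSO (13.3 to 14.5). PCDHGB7 was at 8.66 with P3FI-90 (8.20 to 9.14) and 9.85 with DMSO (9.34 to 10.4). PCDHB5 was at 12.98 with P3FI-90 (12.4 to 13.6) and 12.2 with DMSO (11.7 to 12.8), and PCDHB16 at 9.12 with P3FI-90 (8.65 to 9.61) and 9.06 with DMSO (8.58 to 9.57). The intervals of PCDHGC3 and PCDHGB7 did not overlap between the groups, with lower values with P3FI-90, and neither did those of PCDHB12, at 1.06 with P3FI-90 (0.904 to 1.24) and 0.605 with DMSO (0.484 to 0.747). The feature listed as PCDHB17 did not overlap either, at 0.269 with P3FI-90 (0.193 to 0.364) and 0.113 with DMSO (0.0643 to 0.183). Outside the clusters, the intervals of MYOD1, MYOG, FGFR4, TAF7, DIAPH1, RAD21 and KDM3B did not overlap either, while those of DES and CTCF did. A lack of overlap was thus not particular to these members, and its share over all genes was not computed. These intervals cover counting error only, since there was 1 library per group and no test is possible. The alpha genes had 0 to 9 UMIs each with P3FI-90 and 0 to 4 with DMSO. How reads in the exons shared within the alpha and gamma clusters entered these counts was not examined. Single-cell levels of alpha, beta and gamma genes are therefore not comparable with each other. In poly(A) RNA at 24 h of DMSO, PCDHGC3 averaged 282 TPM and PCDHB5 47.2 TPM.

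Most cells yielded 0 or 1 member at a matched depth. Thinned to 5000 UMIs per cell, which left 8084 cells with P3FI-90 and 8468 with DMSO (1956 cells with P3FI-90 and 3780 with DMSO were shallower), 26.0% of cells with P3FI-90 (exact Clopper-Pearson 95% interval 25 to 26.9) and 27.9% with DMSO (26.96 to 28.9) had a UMI of any member. UMIs of at least 2 members were found in 4.58% of cells with P3FI-90 (4.13 to 5.06) and 4.16% with DMSO (3.74 to 4.604). Without thinning, 51.1% of cells with P3FI-90 and 45.3% with DMSO had a UMI of a member. These shares also depend on how reads in shared exons were counted, which was not examined. Cells were not typed, no doublet caller was run and no cell type known to lack these genes was present, so the share that free RNA gives is not known. With so few UMIs per cell, which members a given cell uses was not detectable at this depth.

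**Figure D5:**
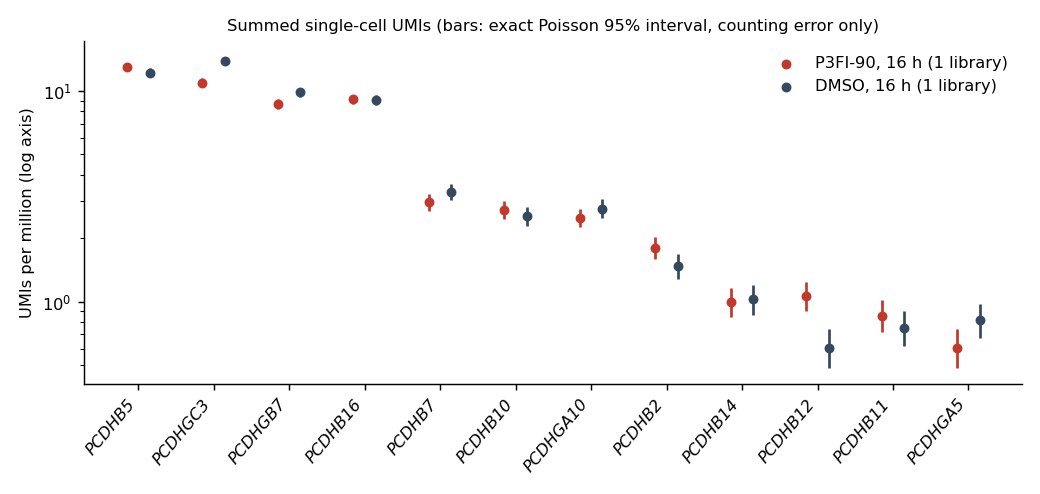
Summed UMIs per 1000000 (y axis, log scale) of the 12 members with the most UMIs, for P3FI-90 and DMSO at 16 h with 1 library each; bars are exact Poisson 95% intervals, which cover counting error only. PCDHGC3 is at 10.9 with P3FI-90 and 13.9 with DMSO, and the points of PCDHB5 and PCDHB16 lie close together.

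Genes around the clusters were not called by the same test. TAF7, a subunit of the general transcription factor TFIID that lies between the beta and gamma clusters, differed by -0.43 with P3FI-90 and -0.29 with P3FI-63 at 24 h. SLC25A2, a mitochondrial carrier gene beside it, was listed at 0 TPM in the 8 libraries. DIAPH1, a formin on the far side of the gamma cluster, differed by -0.11 with P3FI-90 and by -0.78 with P3FI-63. ZMAT2, before the alpha cluster, differed by -0.08 after P3FI-90 and 0.13 after P3FI-63.

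Of the genes known to choose, silence, cut or transmit protocadherins, 1 was called. None of 14 cohesin and CTCF genes was called with either compound at 24 h by limma, with CTCF at -0.03 (P3FI-90) and -0.59 (P3FI-63) and RAD21, a cohesin subunit, at -0.13 (P3FI-90) and -1.18 (P3FI-63). None of 22 genes of silencing was called, including SMCHD1 (-0.31 for P3FI-90, -1.09 for P3FI-63), SETDB1, an H3K9 methyltransferase (0.40 for P3FI-90, -0.16 for P3FI-63), and TRIM28, its partner (-0.41 for P3FI-90, 0.13 for P3FI-63). None of 12 H3K9 and H3K4 demethylase genes was called, including KDM3B, at -0.13 (P3FI-90) and -0.78 (P3FI-63), and KDM1A, at -0.19 (P3FI-90) and -0.91 (P3FI-63). Of 17 genes that process protocadherins or carry their signals, PSEN2, a catalytic subunit of gamma-secretase, was called lower with P3FI-63 (log2 difference -1.53, limma adjusted p = 0.029), at 10.9 and 9.25 TPM against 28.7, 36.8 and 27.9 TPM in DMSO. Outside the clusters, PCDH18 was called lower with P3FI-63 among 4 other protocadherin genes (-1.71, limma adjusted p = 0.045). DCHS1 was called lower with P3FI-63 among 10 other cadherin genes (-1.56, limma adjusted p = 0.045). In the same fit 1.21% of all genes were called lower with P3FI-63, a share that changed with the libraries left out. With P3FI-90 no gene of these lists was called at 24 h or in tumors.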

How the data were processed

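Expression tables were deposited as TPM per gene, which the authors estimated with RSEM after STAR alignment to hg19. Peak lists were deposited with fold enrichment and −log10 p from MACS2 after BWA alignment, per library. Single-cell counts were deposited from Cell Ranger 6.1.2. DESeq2 is also named in the submitters' processing notes. TPM, peak fold and cover keep no depth.

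Genes averaging 1 TPM or more were tested with limma 3.58.1 (R 4.3.3) on log2(TPM + 1), two-sided, with p-values adjusted by Benjamini-Hochberg over all genes. The 3 groups at 24 h shared 1 fit, and tumors had their own. Percent cover by peaks, of 2000 bases on each side of the start (H3K4me3) or of the gene interval (H3K9me2), was tested likewise for genes with a mean cover of at least 1%. Starts came from GENCODE v44lift37. Cells with at least 500 genes and under 15% mitochondrial UMIs were summed per library. Other steps used Python 3.11.15, pandas 2.3.3, numpy 2.4.6 and scipy 1.17.1. Tests were checked on simulated data.

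Members and lists were chosen with earlier results of these data known. Named genes were members averaging 1 TPM or more at 24 h, the called and C-type members, the 3 highest of each cluster in tumors, members with H3K4me3 peaks in all 6 libraries, called list genes and chosen regulators, and flanking genes. Replicate 1 of P3FI-90 and of the ChIP-seq groups was numbered in accession order, so the shared numbers were not taken to pair libraries, and a block on them was an alternative only. The study names the H3K9me2 libraries of both groups with the same closing code for each number, but does not state paired cultures. Tables of coding genes alone and Hi-C files were not used here.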

Additional observations from a re-analysis of the deposited data

Results flagged for a closer look

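The total RNA library with the scrambled control at 48 h, which enters no comparison, held more RNA of many low protocadherin genes than the poly(A) libraries did. In it 24 of the 57 members were higher than in each of the 23 poly(A) libraries, against 5.75% of all genes, and 9 members reached 1 TPM there while staying under 1 TPM in all poly(A) libraries, against 0.88% of all genes. These 9 were 7 variable gamma genes, the pseudogene PCDHGB8P and PCDHB15. PCDHGB3 was at 4.71 TPM in total RNA and at most 0.64 TPM in poly(A) RNA, PCDHGA5 at 3.38 and at most 0.57 TPM, and PCDHGA7 at 3.04 and at most 0.47 TPM. It is 1 library, and its RNA selection and its treatment cannot be told apart.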

How the results depend on the processing

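For P3FI-63 at 24 h, where PCDHGB7 was the 1 member called, 3 members were called with median-ratio scaling, 4 with the replicate block (PCDHB5, PCDHB7, PCDHB8 and PCDHGB7, limma adjusted p = 0.042, 0.020, 0.024 and 0.027), and 4 with both, a setting chosen after the data were seen. Leaving out 1 library gave 0 to 14 called members, with 14 without P3FI-63 replicate 3. Over the 13 alternatives PCDHGB7 differed by -1.48 to -0.80 on the log2 scale, PCDHB5 by -2.80 to -1.21 and PCDHGC3 by -1.37 to -0.55, each lower throughout. Among all genes, 292 were called as deposited, 538 with median-ratio scaling and 1358 with the replicate block. For P3FI-90 at 24 h, in tumors, and for H3K4me3 and H3K9me2 cover, 0 members were called under each alternative run. The replicate block moved the count of all genes for P3FI-90 at 24 h to 3, where 1 was called without it, and called 0 genes for H3K4me3 (831 at an unadjusted p under 0.05 in limma) and 0 for H3K9me2 (21). For P3FI-63 the block called lower 7 muscle and FP-RMS markers, 3 silencing genes, 3 partners, 3 other protocadherins, 3 other cadherins, 1 cohesin gene and 1 neuron marker, and called higher 1 neuron marker and 1 fibroblast, endothelial or blood marker. No block was fitted for tumors. Libraries of different groups with the same number deviated together, with correlations of 0.31 to 0.64 in RNA, 0.77 to 0.89 in H3K4me3 and 0.65 to 0.72 in H3K9me2. Those with different numbers ran between -0.40 and 0.06 in RNA and between -0.73 and 0.04 in H3K4me3. In H3K9me2 they ran between -0.71 and 0.70. Deviations from a group mean sum to 0, which lowers the values between different numbers. Replicate 1 has its number from the order of deposit. Among all genes in tumors, 2 were called, and 20 to 1870 when 1 tumor was left out. TPM estimates of members that share exons or resemble each other depend on how reads were divided, and peak cover depends on the threshold of each list. Alternatives do not remove either limit.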
